A study of Mus musculus with 6 samples.

Results

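Polyamines are small, positively charged molecules that bind nucleic acids and are needed for translation and growth. Their synthesis starts with ornithine decarboxylase (Odc1), which makes putrescine. S-adenosylmethionine decarboxylase (Amd1) supplies the aminopropyl groups that spermidine synthase (Srm) and spermine synthase (Sms) add to it in turn. Spermine oxidase (Smox) and spermidine/spermine acetyltransferase (Sat1) run the pathway backwards. Antizymes (Oaz1 and Oaz2) bind ornithine decarboxylase and send it to the proteasome, and the antizyme inhibitor (Azin1) takes antizyme away from it. In skeletal muscle, Smox is known for keeping fibre size.

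These 9 genes and Amd2, a copy of Amd1, make up the 10 genes described here, of 54393 genes in the deposited table. They were chosen by symbol for their place in the pathway, with earlier results of the genotype comparison known. Their differences between genotypes are therefore given as a description, with standard errors and no p-value. Which and how many of the 10 had an adjusted p under 0.05 is stated below, and nothing is read from it. Averaged over the samples, all 10 reached the minimum of 10 normalized counts and entered the fit.

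Adult mice gave the RNA, taken from the tibialis anterior, which lies along the shin. The wild-type (WT) group held 3 muscles, titled C57 with the numbers 1, 3 and 4, and the Dock3 KO group held 3 muscles, numbered 1, 2 and 3. Dock3 is an activator of the small GTPase Rac, and the comparison asks what changes in muscle without it. The knockout allele, the strain background of the Dock3 KO mice and whether each muscle came from a separate animal are not given in the sources used here, so the spread between samples may be partly technical.

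Values are given in this order of replicates throughout. Dock3 itself (chromosome 9, 106892825 to 107231909, minus strand) ranged from 118 to 169 normalized counts among WT samples, and the Dock3 KO values were 22.4, 1.78 and 1.54. Summed normalized counts were 23520223 to 33393950 per sample. With the most frequent low value of each sample taken as 1 read, they would stand for 21700000 to 32500000 reads. Values above 0 but under that one also occur, so this estimate is rough. In Dock3 KO replicates 1 and 2, a pair of transcripts, Gm42418 and Lars2, took 17.9% and 20.3% of the sum, against 3.00% to 3.64% in the other 4 samples. All 10 skeletal muscle fibre markers examined were present, with summed levels of 1354152 to 1465784 in WT and 1351824 to 1535476 in Dock3 KO. Summed levels of 5 fibroblast markers were 27466 to 29000 in WT and 30381 to 36416 in Dock3 KO. Of the 5, 3 had a higher mean in Dock3 KO and 2 did not. An adjusted p under 0.05 in the limma fit over all genes was reached by 2 of the 5, Col1a1 and Col3a1, and by 1.03% of all genes tested. Summed levels of 6 macrophage markers were 2640 to 2899 in WT and 1926 to 2552 in Dock3 KO, with no adjusted p under 0.05. Those of 4 satellite cell markers were 422 to 452 and 297 to 400, and 1 of the 4 had a higher mean in Dock3 KO. Only 3 of these 4 were tested, with no adjusted p under 0.05. Defining markers of adipocytes, red cells, endothelium and Schwann cells were also above 0, and their summed levels overlapped between genotypes. The part of other cell types in the results below was not tested.

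Amd1 and Amd2 were examined first as sequences, because reads from one can be assigned to the other. Amd1 (ENSMUSG00000075232) lies on chromosome 10 at 40287458 to 40302186 on the minus strand (GENCODE M21, GRCm38), and its longest transcript has 8 exons. Amd2 (ENSMUSG00000063953) lies 4.58 Mb away on the same chromosome and strand, at 35708675 to 35711892, and has 1 exon. The Amd2 transcript of 3218 bases aligned with the whole Amd1 transcript of 3204 bases at 99.6% identity. It ends in a run of 17 A bases, against 1 in Amd1. Both carry an open reading frame of 1005 bases, and GENCODE annotates both as protein-coding.

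In all, 14 substitutions separated the transcripts, 1 in the 5′ untranslated region, 1 in the coding region and 12 in the 3′ untranslated region, of which 4 lie opposite the final run of A in Amd2. With positions counted from the first base of the Amd1 transcript, the coding substitution is G1124C, and it is the only base by which a read from the coding region can tell these genes apart. The coding stretch around it is shown, with the differing base in capitals.
Amd1: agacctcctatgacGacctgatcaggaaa
Amd2: agacctcctatgacCacctgatcaggaaa
Of all stretches of 100 consecutive bases in the Amd2 transcript, 72.9% were found unchanged in an Amd1 transcript, and of those of 50 bases, 85.7%. That left 846 stretches of 100 bases as Amd2's own. The read length is not given in the sources used here.

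**Figure D1:**
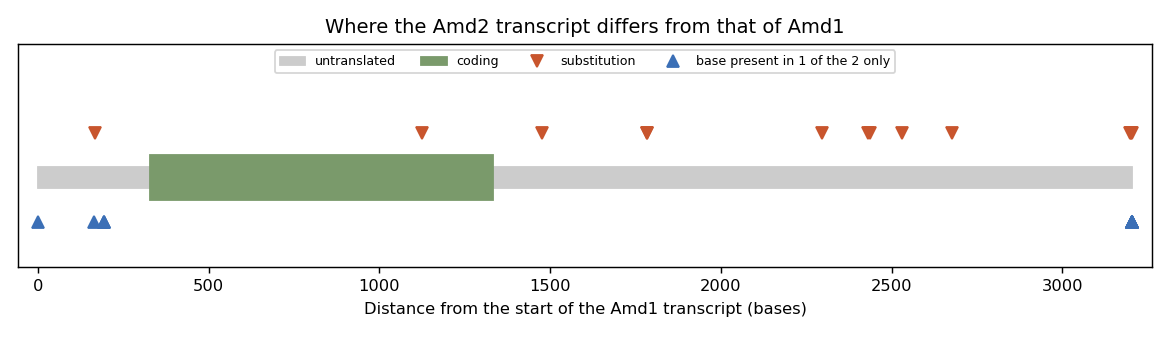
Positions (horizontal axis, bases from the start of the Amd1 transcript) of the 14 substitutions (orange, above) and of the bases present in only 1 of the transcripts (blue, below), over the coding region (green) and the untranslated regions (grey). Only 1 substitution falls in the coding region, and several marks near the right end lie on top of each other.

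The sequence before the annotated start is shown for both genes, since it is there that the copies part. Whether transcription in this muscle begins at the annotated starts was not tested. Each line gives 250 bases before and 30 bases after the RefSeq start, from 5′ to 3′ on the minus strand of GRCm38.p6. Amd1 is at chr10:40302159-40302438 and Amd2 at chr10:35711862-35712141. Capitals mark the run shared by both genes.
Amd1: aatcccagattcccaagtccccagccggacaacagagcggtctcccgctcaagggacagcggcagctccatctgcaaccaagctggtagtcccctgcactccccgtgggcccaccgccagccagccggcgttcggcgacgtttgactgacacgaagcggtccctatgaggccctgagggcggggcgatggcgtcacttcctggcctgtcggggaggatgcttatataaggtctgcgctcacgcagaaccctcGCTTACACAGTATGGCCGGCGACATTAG
Amd2: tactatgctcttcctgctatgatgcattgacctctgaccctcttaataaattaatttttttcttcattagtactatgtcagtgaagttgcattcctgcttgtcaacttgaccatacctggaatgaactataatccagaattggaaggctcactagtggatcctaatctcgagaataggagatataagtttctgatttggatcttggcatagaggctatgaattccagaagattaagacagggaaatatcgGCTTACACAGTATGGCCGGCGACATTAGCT
The shared run begins at base 3 after the Amd1 start and at base 1 after the Amd2 start, and is 48 bases long within the RefSeq windows. In the 250 bases before it, 63 positions held the same base. A TATA form, TATATAA, begins 29 bases before the Amd1 start (position -29). The search took this form, the form TATAAAA, another form spelled TATAAAT and a last one, overlapping the first, that reads TATATAT, on both strands. None was in the Amd2 window. At least 1 of them occurs in 12.5% of 32851 windows of 300 bases, and among the 8 polyamine genes with a window they occurred for Amd1 and Oaz1. Of the other motifs searched, GGGCGG was in the Amd1 window only, CCAAT in the Amd2 window only and CACGTG in neither. These occur in 35.7%, 37.4% and 7.2% of the windows.

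Amd2 was far lower in Dock3 KO muscle, whereas Amd1 was not separated by genotype. WT replicates 1, 3 and 4 held 1619, 1337 and 1051 normalized counts of Amd2. Dock3 KO replicates 1, 2 and 3 held 152, 110 and 40.8. All 3 Dock3 KO samples were low, and the lowest WT value was 6.92 times the highest Dock3 KO value. The means were 1336 ± 284 (SD, n = 3) and 101 ± 56.1 (SD, n = 3), 13.2 times lower in Dock3 KO. The difference on the log2(normalized count + 1) scale used for all fits was -3.88 with a standard error of 0.402 (limma).

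Amd1 had WT values of 12738, 10187 and 11352 normalized counts and Dock3 KO values of 10141, 12173 and 7149. Replicate 2 of Dock3 KO lay within the WT range, replicate 1 just under it, and replicate 3 at 62.6% of the WT mean. The means were 11426 ± 1277 and 9821 ± 2527 (SD, n = 3 each), for a log2 difference of -0.25 (standard error 0.192). Without Dock3 KO replicate 3 the log2 difference was -0.03, and with replicate 3 as the only Dock3 KO sample it was -0.67, so this library sets its size. Replicate 3 is also the Dock3 KO sample without the large Gm42418 and Lars2 share, and the part of that share was not tested.

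The sum of both genes does not depend on how reads were divided between them. Amd1 plus Amd2 came to 14357, 11525 and 12403 normalized counts among WT samples, and to 10292, 12284 and 7190 among Dock3 KO samples. Here 2 of the 3 Dock3 KO samples lay below the WT range and replicate 2 lay inside it. The means were 12762 ± 1450 and 9922 ± 2567 (SD, n = 3 each), so that Dock3 KO stood at 77.7% of WT. The log2 difference of the sum was -0.39 (standard error 0.194). It was -0.18 without Dock3 KO replicate 3 and -0.82 with that replicate as the only Dock3 KO sample. The mean sum was 2840 normalized counts lower in Dock3 KO, and Amd2 made up 43.5% of that difference. This share also turned on replicate 3, being 81.8% without it and 23.2% with it as the only Dock3 KO sample.

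Amd2's share of the sum is a ratio within each sample and does not change with a scaling common to all genes of that sample. Whether the deposited values also hold a scaling that differs between genes is not given in the sources used here. It was 11.3%, 11.6% and 8.47% in WT and 1.48%, 0.898% and 0.567% in Dock3 KO replicates 1, 2 and 3. Every Dock3 KO share lay below every WT share. In Dock3 KO replicate 3, Gm42418 and Lars2 took 3.64% of the summed normalized counts, against 3.00% to 3.51% in WT. The part of Gm42418 and Lars2 in the Amd2 share was not tested. The means were 10.4% ± 1.72 and 0.980% ± 0.459 (SD, n = 3 each). In units of the most frequent low value of each sample, taken as 1 read, Amd2 stood at 108, 72.4 and 52.6 in Dock3 KO. It stood at 1275 to 1828 in WT, and so was listed above 0 in every sample. Whether the Amd2 values in Dock3 KO come from Amd2 or from Amd1 reads assigned to it was not tested.

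**Figure D2:**
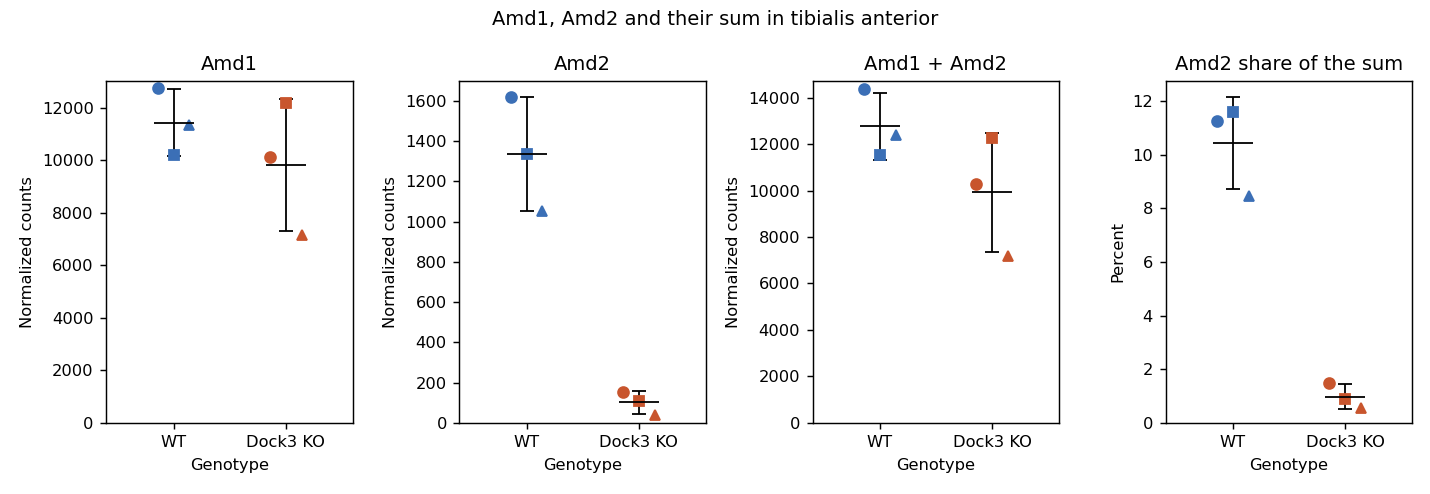
Normalized counts of Amd1, Amd2 and their sum, and Amd2's share of the sum in percent (vertical axes from 0), in WT (blue) and Dock3 KO (orange) samples. Circles, squares and triangles are replicates 1, 3 and 4 of WT and 1, 2 and 3 of Dock3 KO, with the mean and SD as bars. The Amd2 values and shares do not overlap between genotypes, while those of Amd1 and the sum do.

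Processed pseudogenes are further copies of Amd1. Besides Amd2, 4 annotated copies had 95% identity or more to it across 50% or more of the shorter transcript. The only one of these 4 with a mean of at least 10 was Amd-ps3 on chromosome 18 (64448685 to 64449689, minus strand), at 99.9% identity to Amd1. It had WT values of 0, 23.1 and 0 normalized counts and Dock3 KO values of 233, 0 and 0, so that Dock3 KO replicate 1 alone holds most of it. With all 5 copies added, Amd1 stood at 12779 ± 1443 for WT against 10007 ± 2589 for Dock3 KO (SD, n = 3 each), or 78.3% of WT, close to the sum of Amd1 and Amd2.

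Odc1, the first enzyme of the pathway, was the other gene whose genotypes did not overlap. Odc1 (ENSMUSG00000011179) lies on chromosome 12 at 17544794 to 17551505 on the plus strand. It had WT values of 2567, 2367 and 2246 normalized counts and Dock3 KO values of 1275, 1871 and 1350. All 3 Dock3 KO values lay below the lowest WT value, with replicate 2 nearest to it. The means were 2393 ± 162 and 1499 ± 324 (SD, n = 3 each), or 62.6% of WT in Dock3 KO, and the log2 difference was -0.69 (standard error 0.160). Over 19 alternative settings it ran from -0.97 to -0.59. Near-identical copies of Odc1 were listed at 4.25 normalized counts or less, so adding them left the means at 2397 and 1501.

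Ratios within a sample set Odc1 against its neighbours in the pathway, without any scaling common to all genes of that sample. The ratio of Odc1 to Amd1 was 0.202, 0.232 and 0.198 in WT and 0.126, 0.154 and 0.189 in Dock3 KO, without overlap. Against Sms it was 1.15, 1.28 and 1.06 in WT and 0.640, 0.863 and 0.896 in Dock3 KO, again without overlap. Against Oaz1, the main antizyme transcript, it was 0.505, 0.436 and 0.388 in WT and 0.218, 0.467 and 0.261 in Dock3 KO, where replicate 2 lay within the WT range. The ratio of Odc1 to Amd1 plus Amd2 overlapped too, with 0.179 to 0.205 in WT and 0.124 to 0.188 in Dock3 KO. A ratio does not tell which gene of a pair differs, and none of these ratios was tested.

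The aminopropyl transferases that follow overlapped between genotypes. Sms (ENSMUSG00000071708, chromosome X, 157443855 to 157492287, minus strand) had WT values of 2237, 1849 and 2125 normalized counts and Dock3 KO values of 1994, 2168 and 1507. As for Amd1, replicate 3 was the low sample of Dock3 KO, and the log2 difference of -0.14 ± 0.158 (standard error) became 0.01 without it. Srm (ENSMUSG00000006442, chromosome 4, 148591503 to 148594993, plus strand), which makes spermidine, had WT values of 126, 190 and 174 normalized counts and Dock3 KO values of 91.5, 121 and 184. Its log2 difference of -0.34 ± 0.280 (standard error) became 0.19 with replicate 3 as the only Dock3 KO sample, since here replicates 1 and 2 were the low ones.

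A processed pseudogene with 100% identity to Sms over 1101 bases, Sms-ps (chromosome X, 62775585 to 62776685, minus strand), had WT values of 55.6, 116 and 131 normalized counts and Dock3 KO values of 49.9, 0 and 34.0. These groups did not overlap, but the adjusted p was 0.415 (limma, Benjamini-Hochberg). Reads from Sms and Sms-ps cannot be told apart over those 1101 bases. Summed with its 3 copies, Sms stood at 2171 ± 179 for WT against 1919 ± 333 for Dock3 KO (SD, n = 3 each), or 88.4% of WT, against 91.3% for Sms alone.

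The breakdown enzymes also overlapped between genotypes. Smox (ENSMUSG00000027333, chromosome 2, 131491496 to 131525922, plus strand), which turns spermine back into spermidine, had WT values of 2066, 1601 and 1539 normalized counts and Dock3 KO values of 1275, 1637 and 1097. Replicate 2 of Dock3 KO lay within the WT range and the other two below it. Its means were 1735 ± 288 and 1336 ± 275 (SD, n = 3 each), for a log2 difference of -0.38 (standard error 0.177). Sat1 (ENSMUSG00000025283, chromosome X, 155213132 to 155216449, minus strand), which acetylates spermidine and spermine for export or oxidation, ranged from 259 to 474 in WT and from 315 to 386 in Dock3 KO. All 3 Dock3 KO values of Sat1 lay inside the WT range, and its log2 difference was 0.03 (standard error 0.219).

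The antizyme genes and the antizyme inhibitor overlapped between genotypes. Oaz1 (ENSMUSG00000035242, chromosome 10, 80826656 to 80829290, plus strand) had WT values of 5081, 5425 and 5789 normalized counts and Dock3 KO values of 5847, 4007 and 5168, with replicate 2 low and replicate 1 above all WT samples. Its log2 difference was -0.13 (standard error 0.153). Oaz2 (ENSMUSG00000040652, chromosome 9, 65668001 to 65690300, plus strand) ranged from 1780 to 2005 among WT samples and had Dock3 KO values of 2309, 1706 and 1696, for a log2 difference of 0.01 (standard error 0.148). Azin1 (ENSMUSG00000037458, chromosome 15, 38487427 to 38519266, minus strand) ranged from 700 to 911 among WT samples and had Dock3 KO values of 585, 921 and 759, for a log2 difference of -0.07 (standard error 0.185).

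Odc1, Oaz1 and Azin1 overlap small genes on their own strand (Gm22748, Mir1982 and Mir6951), so reads there may belong to either gene. Azin1 also overlaps Gm49077 on the other strand. Stranded libraries can separate this last pair, but whether strand was used in counting is not given in the sources used here. For Oaz1, a processed pseudogene named after its values were seen, Oaz1-ps, matched the protein-coding transcript over 685 bases at 99.3% identity. It was listed at 118 to 147 normalized counts in WT and 101 to 181 in Dock3 KO, and adding it to Oaz1 left Dock3 KO at 92.5% of WT, against 92.2% for Oaz1 alone.

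**Figure D3:**
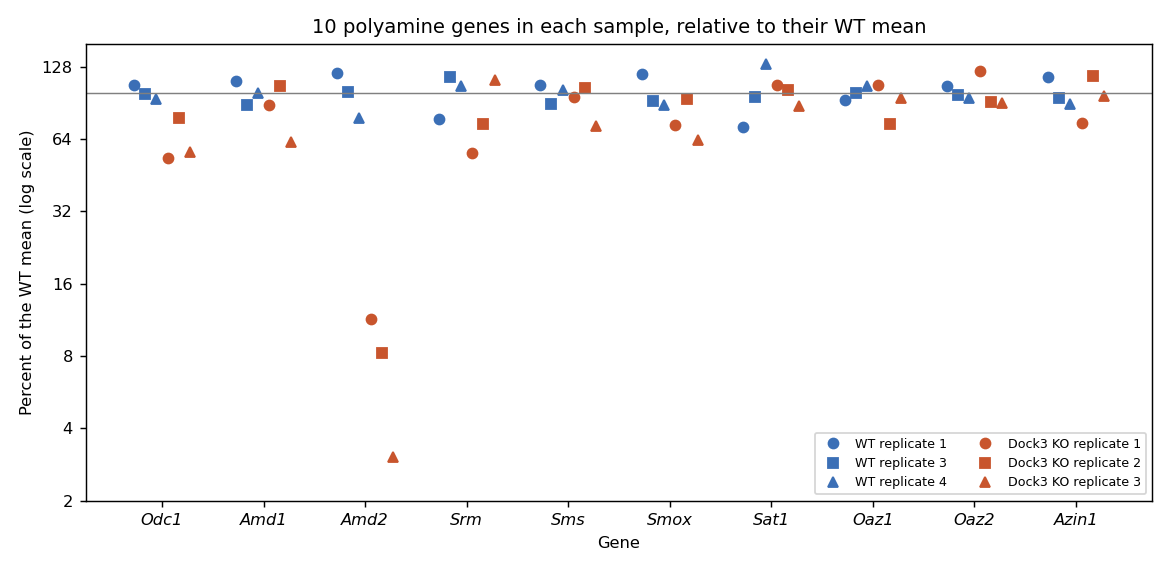
Each of the 10 polyamine genes in every sample as a percent of its WT mean (vertical axis, log scale), in order of role from synthesis to breakdown and antizymes. WT samples are blue and Dock3 KO samples orange, and the grey line marks the WT mean. Amd2 and Odc1 are the genes whose orange points all lie under the blue ones.

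Across the 10 genes, 8 had a log2 difference below 0 and the median was -0.20, against 51.0% of genes below 0 and a median of -0.01 over all 16031 genes tested. Groups did not overlap for 2 of the 10, both lower in Dock3 KO, where 8.65% of all genes were lower and 7.60% higher without overlap, 16.2% in all. Amd2 was the only one of the 10 with an adjusted p under 0.05 (limma, Benjamini-Hochberg), the threshold used throughout, which 1.03% of all genes passed, 0.586% as lower and 0.443% as higher. Since the genes were chosen with this contrast known, nothing is read from these counts. A lower value in whole muscle can mean fewer cells that hold the transcript or less of it per cell, and these cannot be told apart here.

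Levels were compared between genes per kb of their longest protein-coding transcript. In WT, Oaz1 was highest, at 5071 ± 330 normalized counts per kb, followed by Amd1 at 3566 ± 399, Odc1 at 1084 ± 73.5 and Oaz2 at 1017 ± 63.5 (SD, n = 3 each). Smox stood at 755 ± 125, Sms at 557 ± 53.8, Amd2 at 415 ± 88.4 and Sat1 at 309 ± 93.2 per kb. Azin1 and Srm were lowest, at 161 ± 22.9 and 122 ± 24.6 per kb. Of neighbours in this order, Odc1 and Oaz2, Sms and Amd2, and Amd2 and Sat1 overlapped in their WT values, and the others did not.

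In Dock3 KO the order differed in Odc1 and Amd2. Odc1, at 679 ± 147 per kb, stood below Oaz2, at 1033 ± 191, and their values no longer overlapped. Amd2, seventh in WT, was last, at 31.4 ± 17.4 per kb, below Srm at 98.6 ± 35.1 without overlap. Oaz1 and Amd1, at 4675 ± 869 and 3065 ± 789, overlapped in Dock3 KO, as did Odc1 and Smox, Smox and Sms, and Azin1 and Srm (SD, n = 3 each).

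**Figure D4:**
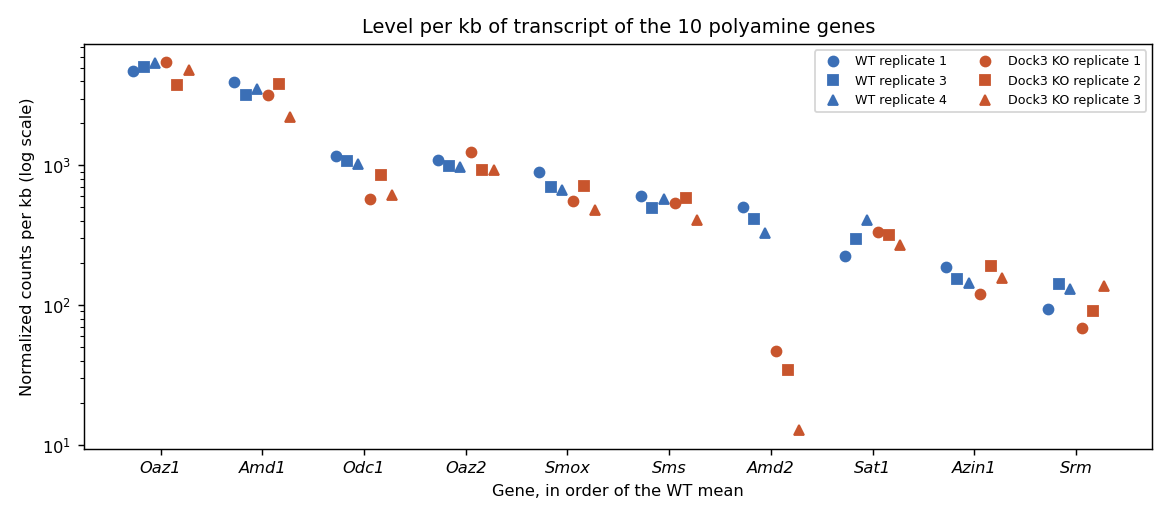
Normalized counts per kb of transcript (vertical axis, log scale) of the 10 polyamine genes in each WT (blue) and Dock3 KO (orange) sample, ordered by the WT mean. Amd2 is seventh of 10 in WT, at 415 per kb, and lowest in Dock3 KO, at 31.4 per kb.

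Genes with the most similar pattern were found by Pearson's r on the log2 scale over the same 6 samples, which share libraries and scaling, among all genes tested except copies of Amd1. For Amd1 these were Ttc33 (r = 0.994), Crot (r = 0.992) and Gm37499 (r = 0.989). Ttc33 had WT values of 693, 600 and 654 normalized counts and Dock3 KO values of 604, 686 and 507, with the same sample low as for Amd1. Among the polyamine genes, Sms came nearest to Amd1 (r = 0.983), followed by Smox (r = 0.885). For Amd2 the most similar were E230020D15Rik (r = 0.997), Ptx3 (r = 0.996) and Kcnc4 (r = 0.995). Ptx3 had WT values of 111, 118 and 99.0 and Dock3 KO values of 49.2, 47.0 and 34.4. Kcnc4, a potassium channel gene, ranged from 2073 to 2105 in WT and from 1391 to 1642 in Dock3 KO. Odc1 was the polyamine gene nearest to Amd2 (r = 0.879). Both were lower in Dock3 KO without overlap, which by itself raises r over these 6 samples. Within Dock3 KO their order differed, with Amd2 at 152, 110 and 40.8 and Odc1 at 1275, 1871 and 1350. For the sum of Amd1 and Amd2 the most similar genes were Vldlr (r = 0.990), Rida (r = 0.988) and Scg3 (r = 0.988).

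The surrounding pathways were then examined with 47 further genes in 6 lists, of which 36 had a mean of at least 10 and were tested. None rose or fell past the threshold (limma, Benjamini-Hochberg adjusted; the smallest was 0.239), where 1.03% of all genes tested passed. At an unadjusted p under 0.05 there were 3 of the 36, all lower in Dock3 KO, against 10.5% of all genes. Groups did not overlap for 6 of the 36 that were lower and 2 that were higher in Dock3 KO, against 8.65% and 7.60% of all genes. The median log2 difference of the 36 was -0.09, against -0.01 over all genes tested.

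The smallest adjusted p over the lists was that of Ass1, among the genes that supply ornithine and arginine. The other genes tested in that list stood at 0.701 or more (limma, Benjamini-Hochberg). Ass1 (chromosome 2), argininosuccinate synthase, which works in arginine synthesis, had WT values of 92.7, 116 and 105 normalized counts and Dock3 KO values of 52.7, 53.7 and 73.4. These groups did not overlap, and the log2 difference was -0.81 (standard error 0.246), with an adjusted p of 0.239 (limma, Benjamini-Hochberg). Oat (chromosome 7), which makes or uses ornithine in mitochondria, was listed at 3197 to 3539 in WT and 2532 to 3312 in Dock3 KO. In this list 5 of 7 genes tested had a log2 difference below 0, with a median of -0.19. Arginases, which split arginine into ornithine and urea, were nearly absent, with Arg1 at 0 to 8.11 and Arg2 at 0 to 1.40 over the 6 samples.

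On the methionine and S-adenosylmethionine list, 6 of 10 genes tested were below 0, with a median of -0.06. Gamt (chromosome 10), which spends S-adenosylmethionine on creatine synthesis, had WT values of 219, 201 and 228 normalized counts and Dock3 KO values of 191, 127 and 107, without overlap. Its log2 difference was -0.65 (standard error 0.233), with an adjusted p of 0.338 (limma, Benjamini-Hochberg). Ahcy (chromosome 2), which clears S-adenosylhomocysteine, had WT values of 666, 646 and 586 and Dock3 KO values of 457, 523 and 502, also without overlap, with a log2 difference of -0.36 and a limma adjusted p of 0.374. Mat2a, which makes the substrate of Amd1, was listed at 2672 to 2926 in WT and 2254 to 3196 in Dock3 KO.

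The methylthioadenosine salvage list recycles the by-product of spermidine and spermine synthesis to methionine. All 5 of its genes were tested, with a median log2 difference of 0.03. Adi1 (chromosome 12) was listed at 638 to 678 normalized counts in WT and 741 to 812 in Dock3 KO, and Apip (chromosome 2) at 210 to 284 and 293 to 331. Both groups of values were higher in Dock3 KO without overlap, with log2 differences of 0.26 and 0.27 and limma adjusted p-values of 0.509 and 0.673.

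The remaining lists showed no gene past the threshold either. Of the antizyme relatives and breakdown genes, Paox, which oxidizes acetylated polyamines, had WT values of 39.8, 143 and 42.4 normalized counts and Dock3 KO values of 115, 140 and 70.8. Azin2, an antizyme inhibitor like Azin1, ranged from 36.2 to 58.4 in WT and from 31.8 to 50.5 in Dock3 KO. On the hypusine list, whose enzymes use spermidine to modify the translation factor eIF5A, Eif5a2 was listed at 78.9 to 86.2 in WT and 48.0 to 74.5 in Dock3 KO, without overlap (limma adjusted p 0.680). Dhps, the spermidine-using enzyme of that pathway, was listed at 262 to 317 and 244 to 351. Of 7 transport genes tested, 6 were below 0, with a median log2 difference of -0.26. Gpc1, a glypican linked to polyamine uptake, was listed at 5514 to 6561 in WT and 4811 to 5233 in Dock3 KO. Slc18b1, a vesicular polyamine transporter, was listed at 107.4 to 158 and 82.3 to 106.5. Neither gene overlapped between genotypes, with limma adjusted p-values of 0.500 and 0.516.

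**Figure D5:**
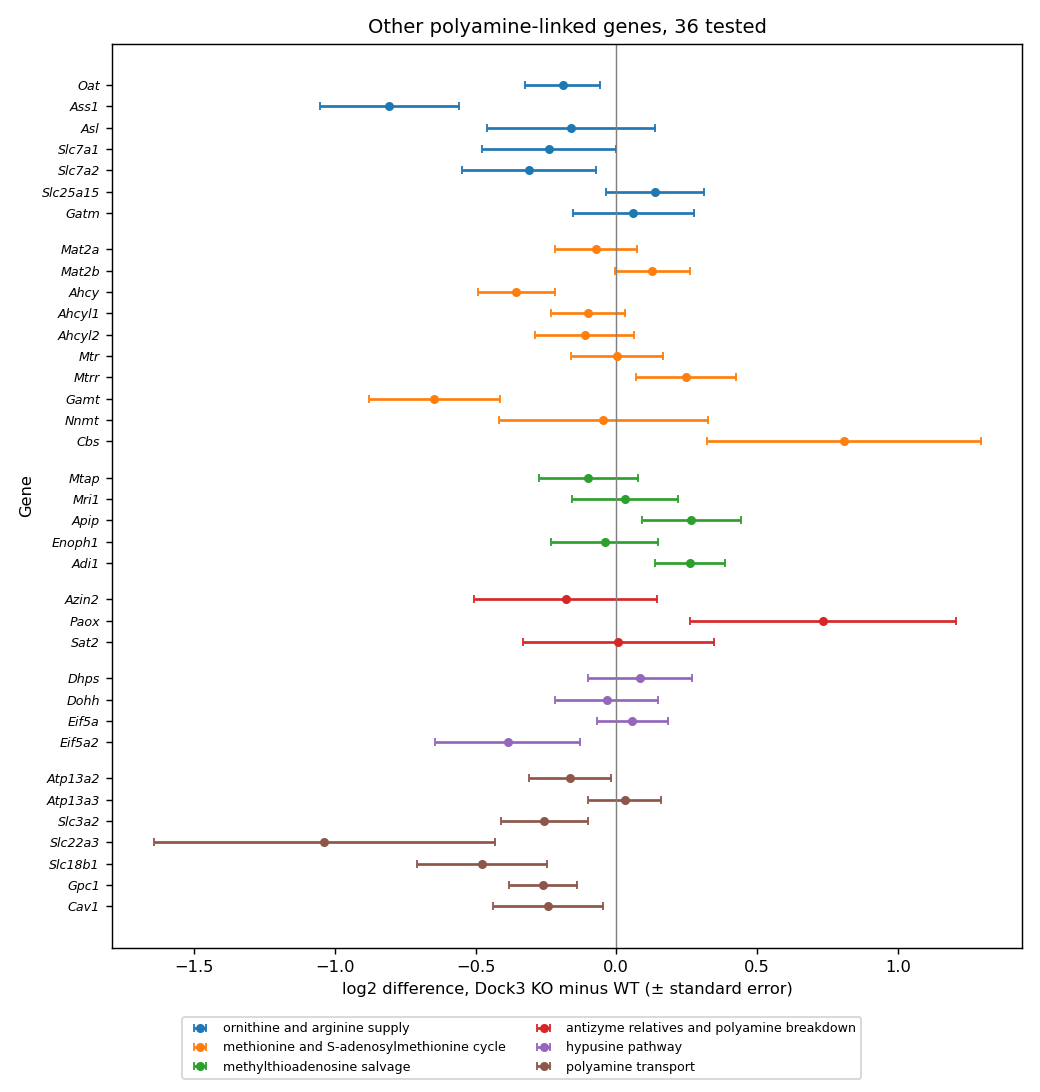
Log2 difference between Dock3 KO and WT (horizontal axis, points, with standard errors as bars) of the 36 tested genes next to polyamine synthesis, coloured by list. The points lie between -1.04 and 0.81, and none passed an adjusted p of 0.05.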

How the data were processed

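The authors deposited 1 table of normalized counts per gene, used here as a signal, since its values are not whole numbers. The submitters' processing notes name FastQC, Trim Galore 0.4.5, Salmon 0.12.0, DESeq2 1.22.1 and R 3.5.3, with the builds mm10 and GRCm38. Their roles, the use of strand and the assignment of reads that match several genes are not given in the sources used here. Libraries were ribosomal RNA-depleted, stranded and read in pairs, per the labels' protocols.

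All 54393 identifiers matched GENCODE M21. Log2(normalized count + 1) values of 16031 genes with a mean of at least 10 were fitted in all 6 samples by limma 3.58.1 (trended prior variance) in R 4.3.3, without covariates. The fit was tested on simulated data. Copies were searched with blastn 2.17.0, using each gene's longest transcript. Upstream sequence is from RefSeq (GRCm38.p6), which had windows for 8 of the 10 genes. Whole reads were not recovered, so no count-based test was run and no counting interval is given. Exact permutation of 3 against 3 cannot reach a p under 0.05.

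Members and gene lists were chosen with earlier results of these data known. Named genes are the 10, Dock3, the 2 smallest p of each list, copies with a mean of at least 10 and the 3 most similar patterns. Mat2a, Arg1, Arg2, Oaz1-ps, Oaz3, Mat1a and Satl1 were named in addition, after their values were seen. Further names are Gm42418 and Lars2, for their share of the sum, the markers Col1a1 and Col3a1 for passing the threshold, and Gm22748, Mir1982, Mir6951 and Gm49077 for overlapping a member.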

Additional observations from a re-analysis of the deposited data

How the results depend on the processing

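The sign of Amd1, Amd2, Odc1, Smox and the sum of Amd1 and Amd2 stayed below 0 in every alternative run, with ranges of -0.71 to -0.03, -5.06 to -3.34, -0.97 to -0.59, -0.69 to -0.25 and -0.87 to -0.18. Srm, Sms, Sat1, Oaz1, Oaz2 and Azin1 changed sign in at least 1. The sum stood at -0.87 with the log2 of Gm42418 plus Lars2 as a covariate and at -0.82 without Dock3 KO replicates 1 and 2. Leaving out 1 sample gave -0.56 to -0.18 for the sum and -10.5 to -8.89 percentage points for the difference in the Amd2 share of Amd1 plus Amd2, against -9.47. Rescaling to the same total moved the median of all genes to -0.28 and Odc1 to -0.97, or -0.69 relative to that median. It put 2 of the 10 polyamine genes past the threshold, against 1. The number was 1 to 2 when 1 sample was left out, and 2 without Dock3 KO replicate 2. It was 0 with near-identical copies summed, where Amd2 has no value of its own. Genes past the threshold numbered 165, and 104 without a variance trend, 61 with the covariate, 49 without Dock3 KO replicates 1 and 2, where the lone sample is assumed to vary like WT, and 98 to 159 with 1 sample left out, the lowest being 98 when WT replicate 4 and 100 when Dock3 KO replicate 2 was dropped. Dock3 at -4.76 had a limma adjusted p of 0.0140. It was not past the threshold without a trend (-4.76), with the covariate (-5.86) or in 5 of the 6 fits that left out 1 sample (-4.92 to -4.21). It was past it at -5.81 in the other one, which dropped Dock3 KO replicate 1. The causes were not tested. No gene of the other lists passed in any alternative.

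Same-numbered samples are of different genotypes, and how they strayed from their groups correlated by 0.0649 and 0.00663 over genes, so the numbers were not taken to pair them. With the replicate block the sum stood at -0.58, Amd2 at -4.20, Odc1 at -0.91 and Dock3 at -4.43, and 127 genes, 1 of them among the 10, and 0 of the other lists passed. WT replicate 4 and Dock3 KO replicate 2 have no same-numbered sample, so only replicates 1 and 3 set the differences in that fit. edgeR and DESeq2 were not run, for lack of whole reads. Amd2 in Dock3 KO stood at 52.6 to 108 times the most frequent low value of its sample, a rough estimate of its reads. Such low numbers limit its precision. Whether some of these reads come from Amd1 was not tested, and how many of them identify Amd2 is not known.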

Other observations

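Among the 47 genes of the surrounding lists, 11 had a mean under 10 normalized counts and were not tested. Oaz3, an antizyme known from testis, had WT values of 3.00, 2.72 and 1.67 and Dock3 KO values of 4.38, 9.62 and 6.03. Mat1a, the liver form of methionine adenosyltransferase, had WT values of 0.902, 0 and 0 and Dock3 KO values of 1.38, 4.56 and 5.44. Satl1 was listed at 0 in all 6 samples.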
